A study of Homo sapiens with 4 samples.

Results

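The genes described here are 10 chromatin regulators linked to clear cell renal cell carcinoma (ccRCC): PBRM1, BAP1, SETD2, KDM5C and KDM6A, which are mutated in a part of these tumors, ARID1A and ARID2, and the SWI/SNF subunits SMARCA4, SMARCA2 and SMARCC1. They were taken by name from the 59050 genes of the deposited table, all 10 were found, and all 10 were among the 16516 genes that passed the filter on low counts. The RNA-seq libraries came from RCC4, an established line of human kidney cancer cells, which carried a doxycycline-inducible hairpin against PML (shPML, one hairpin sequence) or a scrambled hairpin (shCtrl). Both kinds of cells were bulk puromycin-selected populations without cloning, and both received doxycycline for 96 h. Each condition had 2 libraries, 1 from each of 2 separately infected experiments, and the replicate number of the labels was read as the experiment. The question was whether silencing of PML, the scaffold of PML nuclear bodies, altered the RNA of these tumor suppressors.

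Most ccRCC loses the short arm of chromosome 3, which carries VHL and also PBRM1, BAP1, SETD2 and SMARCC1, and the remaining copy of PBRM1, BAP1 or SETD2 is then often mutated. PBRM1 and ARID2 belong to the PBAF form of the SWI/SNF nucleosome remodeler and ARID1A to the canonical BAF form, whereas SMARCA4 (BRG1) and SMARCA2 (BRM) are the alternative ATPases of both and SMARCC1 is a scaffold subunit. BAP1 removes ubiquitin from histone H2A, SETD2 places trimethylation on lysine 36 of histone H3, and KDM5C and KDM6A are X-linked demethylases of histone H3 at lysine 4 and lysine 27, respectively.

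The libraries held from 27781193 to 69870617 counted reads, and the 10 genes had between 300 and 19744 reads each. Levels are given as CPM (reads scaled to a common library size, after TMM correction between libraries). PML, the targeted gene, was at 93.1 and 136 CPM in shCtrl replicates 1 and 2 and at 54.9 and 87.6 CPM in shPML replicates 1 and 2. It was thus lower in shPML in each experiment, with a log2 fold change of -0.69 (adjusted p = 0.32, edgeR's quasi-likelihood test over all genes) and of -0.70 with the experiment as a block (adjusted p = 4.2e-07, same test). All 8 markers of renal carcinoma and kidney epithelium that were examined, PAX8 and CA9 among them, were present at 27.8 CPM or more in every library. The library of shPML replicate 2 stood apart in one respect. It held RNA of genes that mark myeloid cells, from a source that was not tested. CD14 was at 42.8 CPM there and at 0.111 CPM or less elsewhere. A list of 15 myeloid genes (CD14, LYZ, CSF1R and CD163 among them) was written after these values were seen. These genes summed to 365 CPM there and to between 0.935 and 2.39 CPM in the other libraries. All 15 had over 3 counts in that library, against 3 to 5 of them in each other library, where 5 were at 0. Of the markers of other cell types examined first, PTPRC and PECAM1 were also at 12.6 and 4.11 CPM there, whereas CD3E, of T cells, was at 0 and the epithelial marker EPCAM at 39.0 to 52.4 CPM in every library. How far this RNA entered the values of experiment 2 was not tested, so values within experiment 1, where these genes were near 0, are given for the 10 genes and for the other genes named as called. Without shPML replicate 2, no gene of the whole table was called, so that setting says nothing about the 10 genes, and a fit with the block could not be made.

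Compared per length of exon (RPKM, CPM divided by the exonic length in kilobases), the 10 genes spanned a wide range. SMARCA4 was the highest, at 37.7 to 62.3 RPKM over the 4 libraries, followed by SMARCC1 at 27.4 to 31.5 RPKM and BAP1 at 17.3 to 21.4 RPKM, and the ranges of these 3 genes did not overlap. SETD2, KDM5C, ARID1A and KDM6A came next, all within 6.77 to 10.7 RPKM, with ranges that overlapped apart from those of SETD2 and KDM6A. SMARCA2, at 5.11 to 6.19 RPKM, and ARID2, at 4.28 to 5.69 RPKM, overlapped each other and lay below those 4 genes. PBRM1 was the lowest by far in every library, at 1.34 to 1.47 RPKM, and the next gene of the list, ARID2, had a mean level 3.54-fold higher. Of all genes tested, 32.2% had a lower mean RPKM than PBRM1, against 51.9% for ARID2 and 92.2% for SMARCA4. PBRM1 was low also for its place on the chromosome, as 20.7% of the 111 tested neighbours on chromosome 3 lay below it. These lengths count every exon of every transcript, so a gene with long, little-used exons reads low. Overlap with other genes touched few of the counted bases. Of the exonic bases of PBRM1, 1.84% are shared with SMIM4, an antisense gene with 123 to 468 reads per library. For ARID1A and SMARCA2, 3.93% and 3.01% are shared with antisense genes of few or no counts, and the other 7 genes share none.

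**Figure D1:**
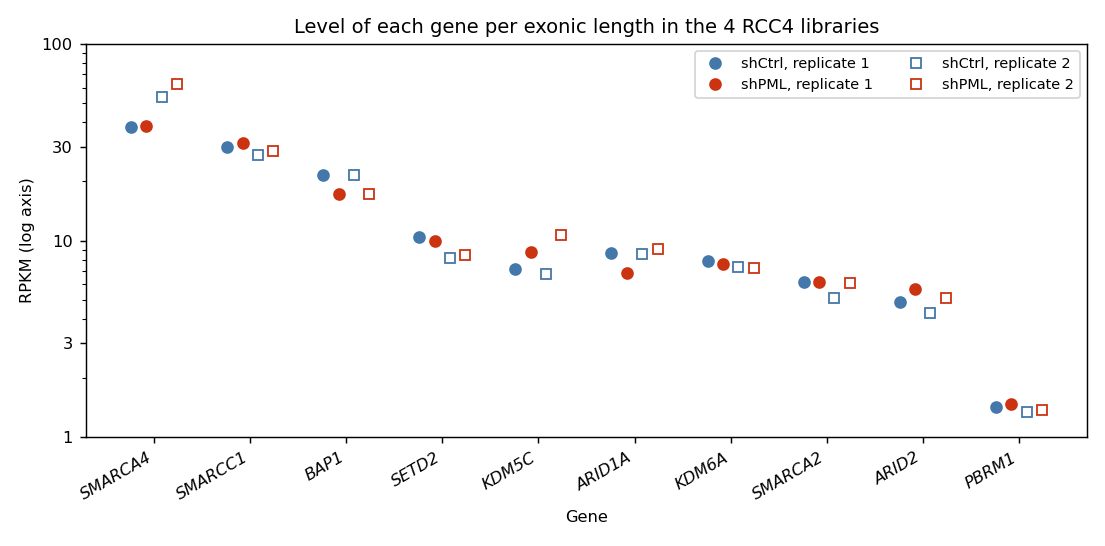
Level of each of the 10 genes in RPKM (log axis) in the 4 libraries, in order of the mean, with circles for replicate 1, open squares for replicate 2, blue for shCtrl and red for shPML. SMARCA4 lies highest and is higher in both replicate 2 libraries, and PBRM1 lies between 1.34 and 1.47 RPKM, apart from all others.

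None of the 10 genes was called after PML silencing, either without the block or with it, where a call needed both a log2 fold change beyond 0.5 and an adjusted p under 0.05 (edgeR's quasi-likelihood test, Benjamini-Hochberg adjustment over all genes). Of all genes tested, 0.412% were called without the block (0.0787% higher and 0.333% lower) and 19.1% with it. DESeq2 called none of the 10 either, against 8.89% of the genes it tested without the block and 16.7% with it. Without the block the adjusted p of the 10 genes ranged from 0.242 for KDM5C to 0.987 for SETD2, and 1 gene (KDM5C) had an unadjusted p under 0.05, as did 17.9% of all genes tested. The median log2 fold change was 0.05 in both fits, against 0.0095 and 0.0042 over all genes tested. The median size of the change, without its sign, was 0.13 with the block against 0.32 over all genes tested.
An adjusted p above the threshold does not show that a gene is unchanged, so the 95% intervals of the fit with the block are given. They lay within 0.5 on both sides for 8 of the 10 genes, all but BAP1 and KDM5C, while 31.6% of all genes tested had such an interval. In the lists of related chromatin genes given below, the share was 46.7% (relatives and partners of KDM5C and KDM6A) to 70% (BAP1 partners). Their median size of change was 0.18 (further SWI/SNF subunits) to 0.25 (relatives and partners of KDM5C and KDM6A). The 10 genes had a median level of 8.32 RPKM, above the 4.47 RPKM of all genes tested, and more reads can narrow an interval. The tested neighbours on chromosome 3 had a median level of 8.59 RPKM, and 34.2% of them had such an interval. How far the level of a gene bears on this share was not tested. At an adjusted p under 0.05 alone, with the block, BAP1 was lower and KDM5C higher, 1 gene in each direction, against 15.7% of all genes lower, 14.5% higher and 30.2% in either direction. DESeq2 with the block passed KDM5C alone at that threshold, against 23.3% of the genes it tested.

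**Figure D2:**
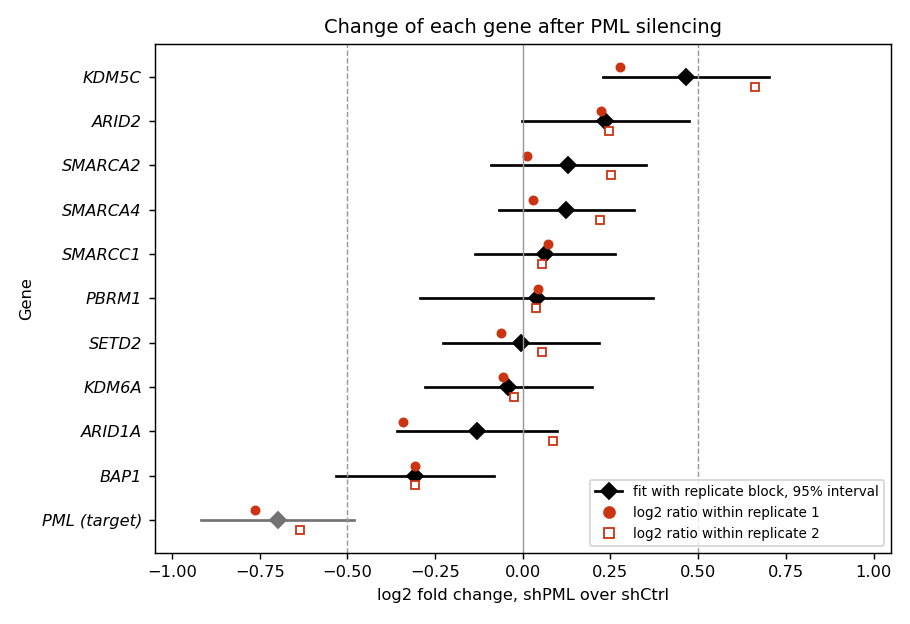
log2 fold change of shPML over shCtrl for the 10 genes and PML, with diamonds and bars for the fit with the replicate block and its 95% interval, filled circles for the ratio within replicate 1 and open squares for the ratio within replicate 2. BAP1 has the same ratio in both experiments, KDM5C and ARID1A have the ratios farthest apart, and the dashed lines mark 0.5 in either direction.

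Among the tumor suppressors on chromosome 3, BAP1 was lower in shPML in both experiments by nearly the same amount. BAP1 (52401008 to 52410008 of chromosome 3, GRCh38, minus strand) was at 77.2 CPM in both shCtrl libraries and at 62.4 CPM in both shPML libraries. The groups did not overlap, which was so for 48.0% of all genes tested (24.9% with shPML lower and 23.1% with shPML higher) and for 3 of the 10 genes, BAP1, KDM5C and ARID2, and the log2 ratio was -0.31 in each experiment (counting standard error 0.03 and 0.04). The fitted log2 fold change was -0.31 without the block (adjusted p = 0.343, edgeR) and -0.31 with it (interval from -0.53 to -0.08, adjusted p = 0.0307, edgeR). DESeq2 with the block gave an adjusted p of 0.0832, so the difference did not pass in both tools.
PBRM1 (52545352 to 52685836, minus strand), at its low level, differed little between the conditions. It was at 11.3 and 10.6 CPM in shCtrl replicates 1 and 2 and at 11.7 and 10.9 CPM in shPML replicates 1 and 2, so the groups overlapped. Its log2 fold change was 0.04 with the block (interval from -0.29 to 0.37, adjusted p = 0.893, edgeR), the widest interval of the 10 genes.
SETD2 (47016689 to 47163967, minus strand) was at 85.7 and 66.9 CPM in shCtrl and at 82.0 and 69.5 CPM in shPML, replicates 1 and 2. The libraries paired by experiment rather than by condition, with log2 ratios of -0.06 and 0.06 within experiments 1 and 2. The fitted change was -0.0053 with the block (interval from -0.23 to 0.22, adjusted p = 0.98, edgeR), and its sign turned under other scalings.

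The 2 X-linked demethylases differed from each other. KDM5C (53191321 to 53225422 of chromosome X, minus strand) was at 49.4 and 46.4 CPM in shCtrl and at 59.8 and 73.4 CPM in shPML, replicates 1 and 2. Both shPML libraries lay above both shCtrl libraries, by 21.1% within experiment 1 and by 58.1% within experiment 2. The log2 fold change was 0.47 without the block (standard error 0.17, adjusted p = 0.242, edgeR) and 0.46 with it (standard error 0.12, interval from 0.23 to 0.70, adjusted p = 0.00146, edgeR), just short of the 0.5 required for a call. DESeq2 with the block gave a similar change, 0.47 (adjusted p = 0.0107). Without the block, leaving out shPML replicate 2, the library with RNA of myeloid genes, gave 0.32, and leaving out shPML replicate 1 gave 0.61.
The log2 ratios of KDM5C within the experiments, 0.28 and 0.66, differed by 0.39, against a counting error of 0.06 on that difference. With 1 library per condition in each experiment, a difference between experiments has no replicate to be tested against.
KDM6A (44873177 to 45112602, plus strand) was at 46.6 and 43.6 CPM in shCtrl and at 44.8 and 42.9 CPM in shPML, replicates 1 and 2. The values of the groups overlapped and its log2 fold change was -0.04 with the block (interval from -0.28 to 0.20, adjusted p = 0.842, edgeR). The difference of this gene between conditions was below 4% in each experiment.

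Of the SWI/SNF genes, ARID2 was higher in shPML in both experiments and ARID1A went in opposite directions. ARID2 (45729706 to 45908040 of chromosome 12, plus strand), the DNA-binding subunit of PBAF, was at 42.1 and 37.1 CPM in shCtrl and at 49.2 and 44.0 CPM in shPML, replicates 1 and 2. The groups did not overlap, the log2 ratios were 0.22 and 0.25, and the fitted change of 0.23 did not pass (interval from -0.0037 to 0.47, adjusted p = 0.137 with the block, edgeR).
ARID1A (26693236 to 26782104 of chromosome 1, plus strand), its counterpart in canonical BAF, was at 84.3 and 83.3 CPM in shCtrl and at 66.5 and 88.5 CPM in shPML, replicates 1 and 2. One shPML library was thus the lowest of the 4 and the other the highest. The log2 ratios were -0.34 and 0.09, a difference of 0.43 with a counting error of 0.05, and the fitted change was -0.13 (interval from -0.36 to 0.10, adjusted p = 0.434 with the block, edgeR).
The ATPase SMARCA4 (10960825 to 11062468 of chromosome 19, plus strand) was at 269.9 and 383 CPM in shCtrl and at 275 and 446 CPM in shPML, replicates 1 and 2. Both replicate 2 libraries lay above both replicate 1 libraries, and the condition added little within an experiment, with log2 ratios of 0.03 and 0.22. The fitted change was 0.12 with the block (interval from -0.07 to 0.32, adjusted p = 0.367, edgeR). Without the block, leaving out shPML replicate 2, it was -0.24. That fit set shPML replicate 1 against the shCtrl libraries of both experiments, so the difference between experiments entered the value. Within experiment 1 alone the log2 ratio was 0.03.
Its paralog SMARCA2 (2015186 to 2193624 of chromosome 9, plus strand) was at 85.6 and 71.3 CPM in shCtrl and at 86.4 and 84.9 CPM in shPML, replicates 1 and 2. The groups overlapped, and the fitted change was 0.13 (interval from -0.09 to 0.35, adjusted p = 0.419 with the block, edgeR). Within experiment 1 the log2 ratio was 0.01, against 0.25 within experiment 2.
SMARCC1 (47585269 to 47781893 of chromosome 3, minus strand) was at 190.3 and 174 CPM in shCtrl and at 200.2 and 181 CPM in shPML, replicates 1 and 2. Its log2 ratios of 0.07 and 0.05 were close to each other, and the fitted change was 0.06 (interval from -0.14 to 0.26, adjusted p = 0.697 with the block, edgeR).

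Several SWI/SNF subunits have a paralog. SMARCA4 or SMARCA2, and ARID1A or ARID1B, take the same place in a complex, whereas SMARCC1 and SMARCC2 can occur in it together. A share within a library does not depend on the scaling between libraries. The ATPase pair kept its balance within each experiment. Of the RPKM of SMARCA2 and SMARCA4, the share of SMARCA2 was 13.98% in the shCtrl and 13.85% in the shPML library of replicate 1, and 8.72% and 8.90% in those of replicate 2. The share thus differed between experiments and by at most 0.179 percentage points between conditions. Of the scaffold pair, SMARCC1 took 56.9% beside SMARCC2 in the shCtrl and 58.4% in the shPML library of replicate 1, and 52.1% and 52.3% in those of replicate 2.
ARID1A took a smaller share beside ARID1B in both shPML libraries. It was at 56.2% and 53.7% of the RPKM of the pair in shCtrl and at 47.5% and 48.4% in shPML, replicates 1 and 2, so the groups did not overlap. The shift was -8.65 percentage points in experiment 1 and -5.34 in experiment 2. As shares of reads, ARID1A took 50.4% (exact binomial 95% interval from 49.4% to 51.4%) and 47.9% (46.7% to 49.2%) in shCtrl and 41.8% (40.9% to 42.7%) and 42.6% (41.4% to 43.9%) in shPML, intervals that cover counting error only. ARID1B itself, the alternative subunit of canonical BAF, was at 82.9 and 90.4 CPM in shCtrl and at 92.6 and 119 CPM in shPML, replicates 1 and 2, a log2 fold change of 0.28 with the block (adjusted p = 0.0452, edgeR), short of the 0.5 for a call. It did not pass without the block (adjusted p = 0.506, edgeR) or in DESeq2 with the block (adjusted p = 0.0853). Over the 4 libraries the two-sided exact permutation p was 0.333 for the ARID1A share, which is the smallest that 2 against 2 allows, 0.667 for the SMARCC1 share and 1 for the SMARCA2 share.

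**Figure D3:**
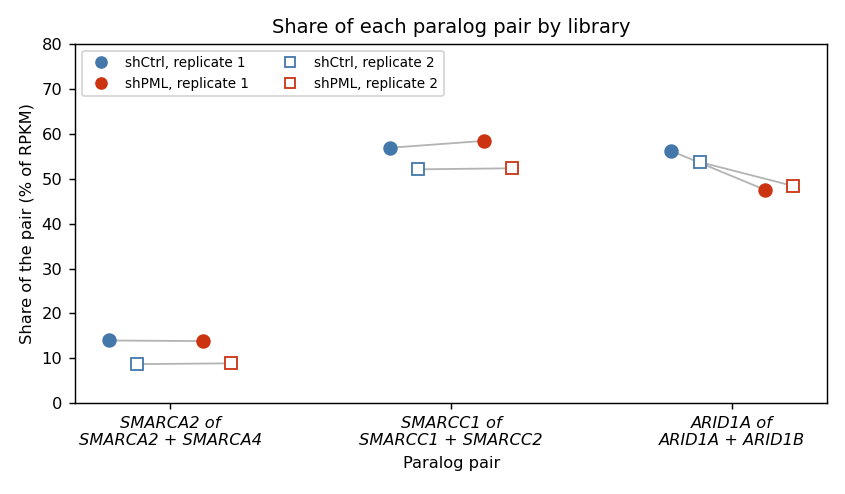
Share of one paralog in the summed RPKM of its pair, in percent, for 3 pairs in the 4 libraries, with lines joining shCtrl and shPML of the same replicate (circles for replicate 1, open squares for replicate 2). The SMARCA2 and SMARCC1 shares separate by replicate, and the ARID1A share is lower in both shPML libraries.

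The experiments differed in some of these genes by more than the conditions did. In the fit with both terms, 7 of the 10 genes had a larger log2 difference between replicates 2 and 1 than between shPML and shCtrl, as did 46.9% of all genes tested. SMARCA4 was the 1 gene called between experiments, higher by 0.60 in replicate 2 (interval from 0.41 to 0.79, adjusted p = 1.6e-06, edgeR), while 13.5% of all genes tested were called, 8.93% higher and 4.53% lower in replicate 2. SETD2 was lower in replicate 2, with a log2 difference of -0.30 (adjusted p = 0.0424, edgeR), short of the fold threshold; 23.7% of all genes tested passed on the adjusted p alone, 14.1% higher and 9.59% lower. SMARCA4 was also higher in replicate 2 within shCtrl alone, where the myeloid genes were near 0, by 0.50 on the log2 scale. BAP1 showed the opposite pattern, with a difference of 0.00093 between experiments. PML, the target, was higher in replicate 2 by 0.61 on the log2 scale (interval from 0.39 to 0.83, adjusted p = 1.1e-05, edgeR).

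**Figure D4:**
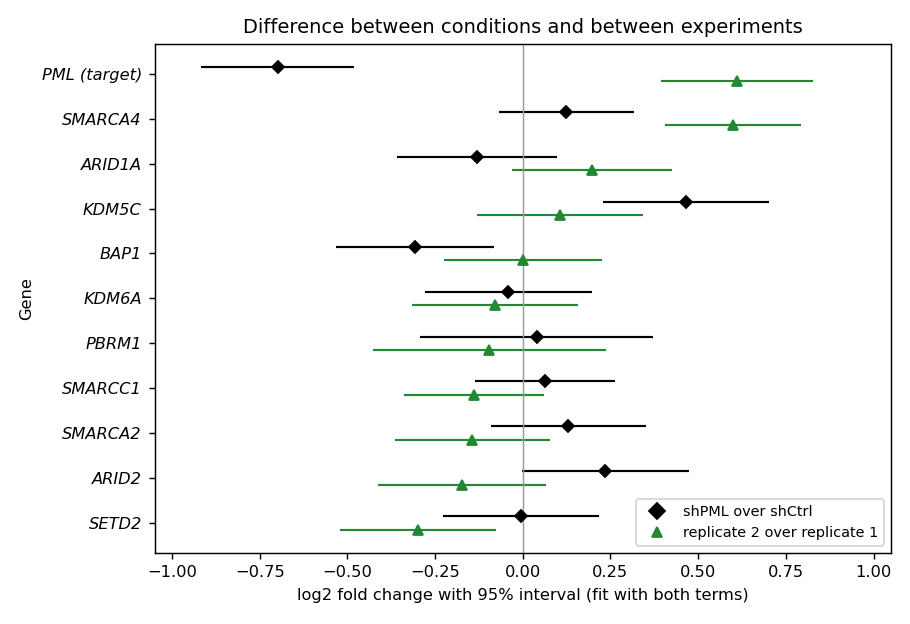
log2 fold change between conditions (diamonds) and between replicates 2 and 1 (triangles) for the 10 genes and PML, each with its 95% interval, from the fit with both terms. The intervals between replicates are clear of 0 for SMARCA4 (0.41 to 0.79), SETD2 (-0.52 to -0.08) and PML (0.39 to 0.83). Those between conditions are clear of 0 for BAP1, KDM5C and PML only.

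Other genes of the same complexes and reactions were read from the same fits, as lists written with earlier results of these libraries known. Among 19 tested of 21 further SWI/SNF subunits, 0 were called without the block (0.412% of all genes tested) and, with it, 2 were lower and 0 higher (10.5% and 8.57% of all genes tested). SMARCE1, a DNA-binding subunit of BAF and PBAF, was at 53.3 and 62.6 CPM in shCtrl and at 30.5 and 31.9 CPM in shPML, replicates 1 and 2. Both shPML libraries lay well below both shCtrl libraries, a log2 fold change of -0.89 with the block (adjusted p = 1.7e-08, edgeR; adjusted p = 0.0789 without it). Of the exonic bases of SMARCE1, 10.7% overlap other genes. DPF1, a BAF subunit used in neurons, was called as well (-0.96, adjusted p = 0.0329 with the block, edgeR), from a low level of 3.18 and 3.56 CPM in shCtrl to 1.30 and 2.33 CPM in shPML, and it did not pass in DESeq2 with the block (adjusted p = 0.227). The median over these subunits was 0.01.
Of the partners of BAP1 (ASXL proteins, HCFC1, OGT, FOXK proteins and others), 10 of 11 were tested and 0 were called in either fit, against 0.412% of all genes tested without the block and 19.1% with it, and the median was 0.05 with the block. Their smallest and largest log2 fold changes were -0.24 and 0.48.
Of 18 genes that write, erase or read methylation of lysine 36 of histone H3, the mark SETD2 makes, 0 were called without the block (0.412% of all genes tested) and, with it, 2 were higher and 0 lower (8.57% and 10.5% of all genes tested). DNMT3B, a DNA methyltransferase recruited to the mark, was at 62.1 and 48.9 CPM in shCtrl and at 90.0 and 97.3 CPM in shPML, replicates 1 and 2. It was higher in both experiments, with log2 ratios of 0.53 and 0.99 and a fitted change of 0.76 (adjusted p = 3.0e-07 with the block, edgeR). KDM2A, a demethylase of lysine 36, rose by 0.51 with the block (adjusted p = 4.1e-05, edgeR), with the same ratio of 0.51 within each experiment, just past the threshold.

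Among the 5 lists of related chromatin genes, the largest change was in that of relatives and partners of KDM5C and KDM6A. Of its 15 genes, 1 was called lower without the block (0.333% of all genes tested), and 3 were lower and 1 higher with it (10.5% and 8.57% of all genes tested). WDR5, a core subunit of the KMT2 methyltransferases that place the mark KDM5C removes, fell from 73.9 and 81.4 CPM in shCtrl to 30.4 and 28.6 CPM in shPML, replicates 1 and 2. The groups were far apart, with log2 ratios of -1.28 and -1.51, and WDR5 was called in both fits (-1.40, adjusted p = 0.0484 without the block, a value that no gene of that fit went below, and -1.39, adjusted p = 1.0e-14 with it, edgeR). The call without the block was lost with any 1 library left out and with RLE scaling. With RLE scaling 0 genes of the whole table were called, so that loss was not particular to WDR5. The same was so without either shCtrl library or shPML replicate 2, but not without shPML replicate 1, where other genes were called. Each fit with a library left out had a lone library in a condition. RBBP5, another core subunit, and PAXIP1, a partner of the KMT2C and KMT2D complexes that also hold KDM6A, fell by 0.56 and by 0.66 on the log2 scale with the block (adjusted p = 0.000266 and 8.9e-06, edgeR). Within experiments 1 and 2 the log2 ratio of RBBP5 was -0.42 and -0.71, and that of PAXIP1 was -0.67 and -0.64. Of the exonic bases of PAXIP1, 13.4% overlap an antisense gene. ASH2L and DPY30, the other core subunits of the list, had log2 fold changes of 0.14 and 0.15 and did not pass (adjusted p = 0.437 and 0.482 with the block, edgeR).
KDM5B, the paralog of KDM5C, was at 48.0 and 46.1 CPM in shCtrl and at 81.8 and 71.1 CPM in shPML, replicates 1 and 2. It was higher in both experiments, with log2 ratios of 0.77 and 0.63 and a fitted change of 0.70 (adjusted p = 1.6e-06 with the block, edgeR). KDM6B, the paralog of KDM6A, was at 17.9 and 34.3 CPM in shCtrl and at 24.1 and 50.4 CPM in shPML, replicates 1 and 2. The groups overlapped, and its log2 difference of 1.00 between experiments was larger than that of 0.49 between conditions. The latter, from the fit with the block, was short of the fold threshold (adjusted p = 0.00125, against 0.646 without the block, edgeR). DESeq2 with the block gave KDM6B a log2 fold change of 0.5006 (adjusted p = 0.0204), just past the threshold.
Among 20 other ATPases and subunits of nucleosome remodelers, 0 were called without the block (0.412% of all genes tested) and, with it, CHD9 was higher (0.62, adjusted p = 2.4e-05, edgeR) and HELLS lower (-0.63, adjusted p = 0.000103, edgeR), 1 gene in each direction against 8.57% and 10.5% of all genes tested. Within experiments 1 and 2 the log2 ratio of CHD9 was 0.48 and 0.77, and that of HELLS was -0.52 and -0.75.

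**Figure D5:**
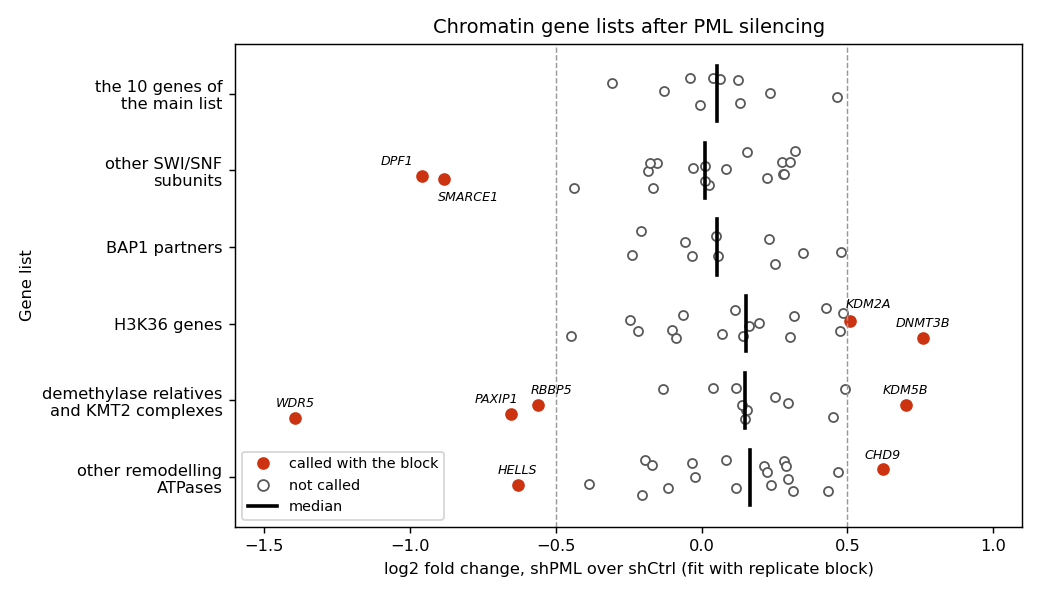
log2 fold change of shPML over shCtrl in the fit with the replicate block for the 10 genes and 5 lists of related chromatin genes, with filled red points for genes called, open points for the others and a bar for the median of each list. No gene of the main list lies beyond the dashed lines at 0.5, and WDR5, at -1.39, lies farthest from 0.

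The genes around the tumor suppressors on chromosome 3 were read as a further comparison. Between 47016689 and 52685836 of chromosome 3, the table held 228 genes beside PBRM1, BAP1, SETD2 and SMARCC1, and 111 were tested. With the block, 17 of these 111 were called higher and 14 lower. Each was a larger share than the 8.57% higher and 10.5% lower of all genes tested, a difference that was not tested. Without the block none was called, against 0.412% of all genes tested. Their median log2 fold change was 0.08. Among the neighbours called, the highest log2 fold change was that of MST1 (1.45, with 1.096 within experiment 1 and 1.84 within experiment 2), which has near-identical copies elsewhere in the genome and is uncertain for that reason, and the lowest that of UCN2 (-1.28, with -1.31 and -1.25). The stretch that holds the 4 genes thus contained changes in both directions, while the 4 genes themselves had log2 fold changes from -0.31 for BAP1 to 0.06 for SMARCC1.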

How the data were processed

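The authors prepared stranded mRNA libraries, read from a single end, trimmed the reads with Trimmomatic 0.39, used STAR for alignment (GRCh38) and featureCounts 1.6.4 for counting on Gencode genes, and the deposited values are raw counts per gene and library, without normalization. The strand setting of the counting is not given in the sources used here. Columns were matched to samples by name. The column of each condition without a number was taken as replicate 1, because the other carries the number 2. A note in the deposited record says that the labels of 2 samples had been exchanged and were corrected.

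The members and all gene lists were chosen with earlier results of these data known. Models were fitted with edgeR 4.0.16 (filterByExpr, TMM, quasi-likelihood test) and DESeq2 1.42.0 under R 4.3.3, and tables and exact tests were made with pandas 2.3.3 and scipy 1.17.1. CPM used the TMM-scaled total over the genes tested, and RPKM divided CPM by the exonic length of the table. The main fit had no block, since the methods of the study name none. The study describes 2 experiments, and the replicate 1 libraries of both conditions deviated together from their group means (correlation across genes 0.641), so a fit with the replicate number as a block is given beside it. Intervals are at 95%. The edgeR fit with the block was checked on simulated counts in which 200 genes were changed, by more than any of the 10 genes here. That check set no pass mark for the fit without the block. It did not cover DESeq2 or changes as small as those of the 10 genes. Genes named are the 10 genes, PML, both genes of each paralog pair, genes with overlapping exons and up to 6 called genes per list. Others named without a call by edgeR (ASH2L, DPY30 and KDM6B) were chosen after their values were seen. Alternatives were DESeq2, the block, RLE or library totals as scaling, no filter or a stricter one (10 counts or more in each library), no fold threshold, and each library left out in turn. P-values of the fits without the block measure the spread between 2 libraries per condition. Those with the block, and the intervals, measure the spread left after condition and experiment are both fitted. In every fit the spread of a gene is moderated with that of the other genes, since so few libraries leave little information per gene.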

Additional observations from a re-analysis of the deposited data

How the results depend on the processing

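With 2 libraries per condition, the number of genes called over the whole table depended on how the experiment was treated. Without the block 13 genes were higher and 55 lower in shPML. With the replicate block there were 1415 and 1735, with DESeq2 538 and 840, with DESeq2 and the replicate block 1000 and 1294, with RLE scaling 0 and 0, without a filter 891 and 946, and with at least 10 counts in every library 53 and 144. Library totals alone gave 24 higher. Fits with the block and RLE, library totals or no fold threshold were chosen after seeing the data, and the last of these gave 2391 higher and 2600 lower. With 1 library left out, 0 to 187 genes were higher and 0 to 61 lower, where the lone library of a condition was assumed to vary like the others. The cause of these differences was not tested.

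None of the 10 genes was called under any alternative that used all libraries and kept the fold threshold. With the block and no threshold 2 were, against 30.2% of all genes tested. With RLE scaling and no block 0 genes of the whole table were called, so that setting says nothing about the 10 genes. Fits with 1 library left out had a lone library in a condition and are read for the size of the change only. They had no block, so a lone library was set against libraries of both experiments. Differences between experiments therefore entered their changes, and whether a gene kept its sign depends in part on them. The median log2 fold change of the 10 genes ranged from -0.0089 to 0.12 with 1 library left out. SETD2, near 0, turned positive with DESeq2 and the block (0.0031), RLE (0.0030), library totals (0.015), the stricter filter (0.0046), and the block with RLE (0.0079) or totals (0.020). With 1 library left out, the ranges that crossed 0 were -0.020 to 0.10 for PBRM1, -0.18 to 0.20 for SETD2, -0.095 to 0.023 for KDM6A, -0.33 to 0.069 for ARID1A, -0.24 to 0.44 for SMARCA4, -0.0060 to 0.28 for SMARCA2 and -0.021 to 0.14 for SMARCC1. BAP1 (-0.32 to -0.29), KDM5C (0.32 to 0.61) and ARID2 (0.14 to 0.35) kept their sign. With library totals, the log2 ratios within experiments 1 and 2 were 0.069 and 0.060 for PBRM1, -0.28 and -0.28 for BAP1, 0.25 and 0.27 for ARID2 and 0.099 and 0.077 for SMARCC1, and -0.032 within experiment 1 for KDM6A.

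Of all genes tested, 19.1% were called with the block, 8.89% with DESeq2 and 16.7% with DESeq2 and the block. Over the whole table, 891 genes were higher and 946 lower without a filter, and 0 were called with RLE. Of the further SWI/SNF subunits, 2 were called with the block and 1 each with DESeq2, with DESeq2 and the block, and without a filter. Their median was 0.021 with DESeq2, 0.027 with RLE, 0.038 with totals and 0.026 with the stricter filter, and -0.092 to 0.17 with 1 library left out. The median of the BAP1 partners was then -0.13 to 0.22. For the lysine 36 genes, 2 were called with the block, 1 with DESeq2, 2 with DESeq2 and the block and 1 without a filter, with medians of 0.161 with DESeq2, 0.161 with DESeq2 and the block, 0.166 with RLE, 0.178 with totals, 0.161 without a filter, 0.167 with the stricter filter and 0.12 to 0.18 with 1 library left out. For the relatives and partners of the demethylases, 4 were called with the block, 3 with DESeq2 and 5 with DESeq2 and the block. Without a filter 3 were called, and with RLE 0, as for the whole table. Their median was 0.023 to 0.13 with 1 library left out. For the other remodelers, 2 were called with the block and 2 with DESeq2 and the block, and the median was 0.055 to 0.19 with 1 library left out. For the chromosome 3 neighbours, 31 were called with the block, 17 with DESeq2, 25 with DESeq2 and the block and 17 without a filter. Their median was 0.076 with the block, 0.115 with totals and 0.055 to 0.12 with 1 library left out.

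With 1 library left out, the difference in the SMARCA2 share ranged from -2.61 to 2.65 percentage points, that in the SMARCC1 share from -2.17 to 3.93 and that in the ARID1A share from -8.22 to -5.78. These values set a lone library against libraries of both experiments, so differences between experiments entered them. Within experiments 1 and 2 the differences were -0.13 and 0.18 for SMARCA2, 1.53 and 0.23 for SMARCC1, and -8.65 and -5.34 for ARID1A. Between experiments, 749 genes were lower in replicate 2 by edgeR and 305 by DESeq2 with the replicate block. At 300 to 838 reads, PBRM1 had the least depth of the 10 genes.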
